A study of Mus musculus with 3 samples.

Results

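This account covers 8 mouse genes of the S100 family of calcium-binding proteins: S100a4, S100a6, S100a8, S100a9, S100a10, S100a11, S100a14 and S100a16. They were chosen from a list of gene symbols and are 8 of the 32287 features counted. The matrix listed 9 other S100 genes. The cells, named PC by the submitters, began as esophageal organoids of mice with both Trp53 alleles floxed. Ad-Cre-EGFP removed Trp53, CRISPR/Cas9 knocked out Cdkn2a, and the dissociated cells then grew in DMEM with fetal bovine serum. They also expressed Cas9 constitutively, received a barcode library by Lipofectamine transfection, and were sorted live for RFP after 3 passages. All groups below are gates of cells within this 1 culture, so per the labels they share both knockouts, Cas9 and the barcode library. The labelled tissue is esophageal cancer, and another line with a Notch1 knockout that the design mentions was not analysed here.

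The data were counts of unique molecular identifiers (UMIs), which tag the 3' ends of single RNA molecules, from droplet sequencing. Of 18116 deposited barcodes, beside about 20000 recovered cells stated in the labels, 14925 passed the filters on genes, UMIs and mitochondrial UMIs. These held a median of 2955 UMIs and 1499 genes, and from 1000 to 23453 UMIs each. No unmodified or untreated culture was analysed, and with 1 culture there is no replicate error, no test and no p-value. Ranges in brackets are exact 95% Poisson or binomial intervals, which cover counting error only. Trp53 gave 2126 UMIs and Cdkn2a 29067. The labels do not say which part of either gene was removed, so these 3' counts check neither knockout.

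S100 proteins are small EF-hand proteins found in vertebrates. Calcium binding exposes a surface with which most of them hold a target protein, and S100A10 is the exception, since its EF-hands no longer bind calcium. S100A10 pairs with annexin A2 at membranes, S100A11 binds annexin A1, S100A4 binds the heavy chain of non-muscle myosin and is widely used as a mesenchymal marker, and S100A8 with S100A9 forms calprotectin, which neutrophils and stressed squamous epithelium make. Most genes of the family lie side by side in a cluster shared with the epidermal differentiation complex, the set of genes that build the cornified layer of stratified epithelium.

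In the GENCODE M21 annotation of GRCm38 all 8 genes are protein coding and lie on chromosome 3 in 2 runs. The first run holds S100a14 at chr3:90526856-90528837, S100a16 at chr3:90537254-90543151, S100a4 at chr3:90603771-90606045, S100a6 at chr3:90612882-90624181, S100a8 at chr3:90668978-90670035 and S100a9 at chr3:90692632-90695721. S100a9 alone among the members is on the minus strand. The second run lies further along and holds S100a11 at chr3:93520488-93526287 and S100a10 at chr3:93555080-93564643. The other S100 genes S100a1, S100a13, S100a3, S100a2, S100a5 and S100a7a lie in the first run. An annotated transcript named Gm42674 overlaps S100a4 and S100a3 on the same strand and was not among the counted features.

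RefSeq promoter entries on GRCm38.p6 were matched for 6 of the 8 members, and none was listed for S100a10 or S100a14. The 250 bases before the RefSeq start are printed for 4 members on which the results turn: S100a4 and S100a9, which differed between sets of cells, and the abundant S100a6 and S100a11. Capitals mark matches, on either strand, to any of TATAAA (the TATA box), TGANTCA (AP-1), GGGCGG (the GC box of Sp and KLF factors), TTGCNNAA (C/EBP) and GGAATG (TEAD). Each sequence runs 5' to 3' on its gene's strand.
S100a4, chr3:90603520-90603769, plus strand: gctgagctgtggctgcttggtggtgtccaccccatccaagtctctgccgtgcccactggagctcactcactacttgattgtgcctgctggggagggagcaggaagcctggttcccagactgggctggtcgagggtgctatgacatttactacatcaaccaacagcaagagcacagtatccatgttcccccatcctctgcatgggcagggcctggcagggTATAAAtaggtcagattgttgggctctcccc
S100a6, chr3:90612644-90612893, plus strand: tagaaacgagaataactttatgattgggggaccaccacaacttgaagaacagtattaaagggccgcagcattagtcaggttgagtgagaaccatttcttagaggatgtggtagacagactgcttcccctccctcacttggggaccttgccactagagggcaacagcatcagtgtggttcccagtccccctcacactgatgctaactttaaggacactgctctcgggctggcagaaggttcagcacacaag
S100a11, chr3:93520246-93520495, plus strand: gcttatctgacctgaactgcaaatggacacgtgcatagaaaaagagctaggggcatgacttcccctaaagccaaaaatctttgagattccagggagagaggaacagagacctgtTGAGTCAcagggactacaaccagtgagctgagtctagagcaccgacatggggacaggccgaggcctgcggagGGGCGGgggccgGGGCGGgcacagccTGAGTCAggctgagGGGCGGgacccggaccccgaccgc
S100a9, chr3:90695722-90695971, minus strand: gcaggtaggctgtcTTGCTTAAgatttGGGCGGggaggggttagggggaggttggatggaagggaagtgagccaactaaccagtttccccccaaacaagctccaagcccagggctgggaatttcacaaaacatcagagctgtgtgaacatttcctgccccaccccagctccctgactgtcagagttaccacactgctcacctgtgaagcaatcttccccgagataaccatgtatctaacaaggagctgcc

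The S100a4 window held TATAAA, beginning 31 bases before the start, which 12.4% of 32851 RefSeq promoter windows of this length also held. The S100a11 window held 2 matches to TGANTCA and 3 to GGGCGG. Those motifs occurred in 6.75% and 32.7% of all windows. The S100a9 window held 1 match to TTGCNNAA, found in 9.56% of windows, and 1 to GGGCGG. None of the 5 motifs was in the S100a6 window, although this gene gave the most UMIs of the family. A match is only a match of letters.

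Levels are given as CPM, the UMIs of a gene per 1000000 UMIs summed over a set of cells, and are not divided by gene length because each molecule is counted at its 3' end. Over all kept cells the 8 genes made up 1.56% of UMIs. S100a6 stood at 10668 CPM (10638 to 10698), the fifth highest of all features. S100a11 stood at 2147 CPM (2134 to 2161) and S100a10 at 1745 CPM (1733 to 1757). S100a6, S100a11 and S100a10 thus formed the abundant members, detected in 97.3%, 94.1% and 91.2% of cells in that order. S100a14 reached 680.0 CPM (672.4 to 687.6), S100a16 244.8 CPM (240.3 to 249.4) and S100a4 146.7 CPM (143.2 to 150.3). The calprotectin genes were near the limit of detection, with S100a9 at 3.10 CPM from 141 UMIs in 55 cells and S100a8 at 0.418 CPM from 19 UMIs in 12 cells. No intervals of neighbours in this order overlapped. Among the other S100 genes, S100a1 (54.8 CPM), S100a13 (54.0 CPM) and S100a3 (16.2 CPM) exceeded 10 CPM. S100a5, which lies between S100a4 and S100a6, gave 0 UMIs in 14925 cells, which allows UMIs in up to 0.0247% of cells, although its neighbour S100a6 gave 484790.

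Variation between cells was measured after each cell was thinned at random to 1500 UMIs, which 13281 cells reached. The ratio of variance to mean is near 1 for counting noise alone, and its median was 1.05 over 2624 genes that averaged 0.1 or more thinned UMIs. S100a6 had a ratio of 4.88, with a median of 15 UMIs per thinned cell and quartiles at 9 and 21 UMIs. The ratio was 1.75 for S100a11, 1.65 for S100a10, 1.498 for S100a4, 1.45 for S100a14 and 1.12 for S100a16. Only 5.91% of the 2624 genes had a ratio of at least 1.5. In this ratio alone, S100a16 was close to the median gene and S100a6 far above it, at means of 0.363 and 15.8 thinned UMIs. The ratio grows with the mean where cells differ, so it does not rank genes of unequal level.

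Cells were divided into 5 exclusive gates by marker UMIs, none of them from an S100 gene. The epithelial gate (Epcam, Cdh1 and Krt5, the latter a basal keratin) held 10779 cells, or 72.2%. The mesenchymal gate (Vim, Col1a1, Col3a1, Col5a1 and Dcn) held 1373 cells, or 9.20%. A mixed gate with both marker sets held 112 cells, 1797 cells were in no gate, and 864 barcodes with at least 5% of UMIs from the nuclear RNA Malat1 formed a Malat1-rich gate. Sums of markers outside the gate rule followed the names. The 10 epithelial markers summed to 5024 CPM in the epithelial and 609.4 CPM in the mesenchymal gate. The 12 mesenchymal markers summed to 795.3 and 12819 CPM. Of the latter, 8 reached 10 CPM in the mesenchymal gate, and Fn1 alone had 4617 CPM. Thy1 gave no UMI there, and Col1a2, a defining fibroblast collagen, was nearly undetected with 4 UMIs. Over the 5 gates, 8 macrophage markers summed to 30.7 to 58.1 CPM and 4 endothelial markers to at most 3.84 CPM. Doublets were not removed, so the mixed gate can hold droplets with cells of both kinds.

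Among the 6 members that reached 10 CPM in either gate, S100a14 and S100a4 differed most between the epithelial and mesenchymal gates, in opposite directions. S100a14, an epithelial member of the family, stood at 812.7 CPM (803.2 to 822.2) in the epithelial gate and 7.35 CPM (5.12 to 10.2) in the mesenchymal gate. It was 111-fold lower in mesenchymal cells, with UMIs in 1.17% of thinned mesenchymal cells against 66.1% of thinned epithelial cells. S100a4, the myosin-binding member, stood at 289.9 CPM (274.8 to 305.6) in mesenchymal and 127.9 CPM (124.1 to 131.7) in epithelial cells. That is 2.27-fold higher (2.13 to 2.41) in the mesenchymal gate, with UMIs in 30.6% against 15.1% of thinned cells. S100a4 was thus far from absent in epithelial cells.

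A gene was called between gates at a ratio of at least 2 where either gate reached 10 CPM. S100a9 and S100a8 stayed under that minimum. S100a9 was at least 5.90-fold lower in the mesenchymal gate, with no UMI against 128 UMIs in epithelial cells, and S100a8 had a ratio of 2.17 (0.384 to 8.43) from 3 mesenchymal UMIs. Of the 6 members tested, 1 was called higher (S100a4) and 1 lower (S100a14) in the mesenchymal gate, beside 11.3% of 9116 tested genes called higher and 11.2% called lower. The members' share of calls is therefore close to that of all genes. S100a14 passed the 10 CPM minimum only through the epithelial gate, so no higher call was possible. Its call adds nothing to the 2 levels. The size of the S100a14 ratio moved with the processing. It was 0.00904 as a fraction of the epithelial level, 0.00565 without the cells of highest doublet score, and 0.0206 with gates set on thinned counts. Grem1, a secreted BMP antagonist of mesenchymal cells, was taken as a gauge of mesenchymal RNA in epithelial droplets. It stood at 402.0 CPM in the mesenchymal and 0.377 CPM in the epithelial gate. It had UMIs in 37.0% and 0.0887% of thinned cells, at median depths of 3368 and 3075 UMIs before thinning. Aebp1 was likewise low in the epithelial gate, at 0.957 CPM. Other mesenchymal markers were not: Sparc stood at 153.9 CPM and Fn1 at 371.7 CPM there, with UMIs in 17.6% and 36.9% of thinned cells. The source of those UMIs was not tested. Mesenchymal RNA in epithelial droplets is the reverse of the direction at issue for S100a14, so Grem1 does not gauge epithelial RNA in mesenchymal droplets. The part of free RNA or of doublets in the 1.17% of mesenchymal cells with S100a14 was not tested.

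**Figure D1:**
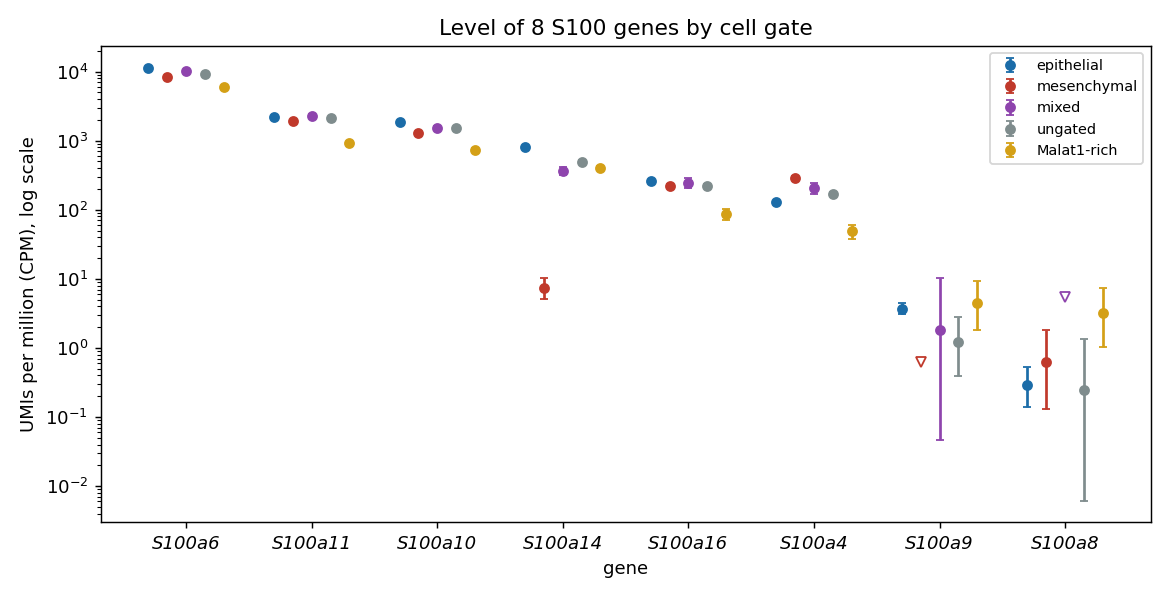
Level of each of the 8 S100 genes in the 5 gates of the 14925 kept cells, in CPM on a log scale. Points are summed levels, bars exact 95% Poisson intervals for counting error, and open triangles the level that 3 UMIs would give where none was counted. S100a14 is the member set far apart in the mesenchymal gate, at 7.35 CPM against 812.7 CPM in the epithelial gate.

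The other abundant members were lower in the mesenchymal gate by less than the calling ratio. S100a6, which binds annexins and the Siah1 ligase partner Cacybp, had 8351 CPM in mesenchymal and 11379 CPM in epithelial cells, a ratio of 0.734 (0.726 to 0.742). S100a10, the annexin A2 partner, had 1298 and 1879 CPM, a ratio of 0.691 (0.673 to 0.709). S100a11 had 1940 and 2235 CPM, a ratio of 0.868 (0.850 to 0.887). S100a16, which lies next to S100a14, had 223.2 and 257.8 CPM, a ratio of 0.866 (0.812 to 0.923). The order of the top 3 members, S100a6, S100a11 and S100a10, was the same in both gates, whereas S100a4 moved from the sixth place in epithelial to the fourth in mesenchymal cells. The 8 genes together took 16695 CPM in the epithelial and 12111 CPM in the mesenchymal gate. These levels are shares of RNA, so they do not tell whether a cell held fewer S100 molecules or more of other RNA.

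Along the chromosome the ratios changed sharply between adjacent genes. S100a1 and S100a13, which start 43 bases apart on opposite strands, were 4.35-fold (3.97 to 4.76) and 3.81-fold (3.48 to 4.18) higher in the mesenchymal gate. S100a14, whose start is 12421 bases from that of S100a13, was the member 111-fold lower there. S100a16 follows after another 10398 bases with a ratio of 0.866. S100a3 was 9.0-fold lower, with 10 UMIs in mesenchymal cells, and S100a4 and S100a6, whose starts are 9111 bases apart, lay on opposite sides of 1. Neither direction was therefore shared by the run as a whole. S100a3 overlaps S100a2 and Gm42674 in the annotation. Gm42674 was not counted, so no UMI was assigned to it. How UMIs in the overlaps were treated is not given in the sources used here.

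**Figure D2:**
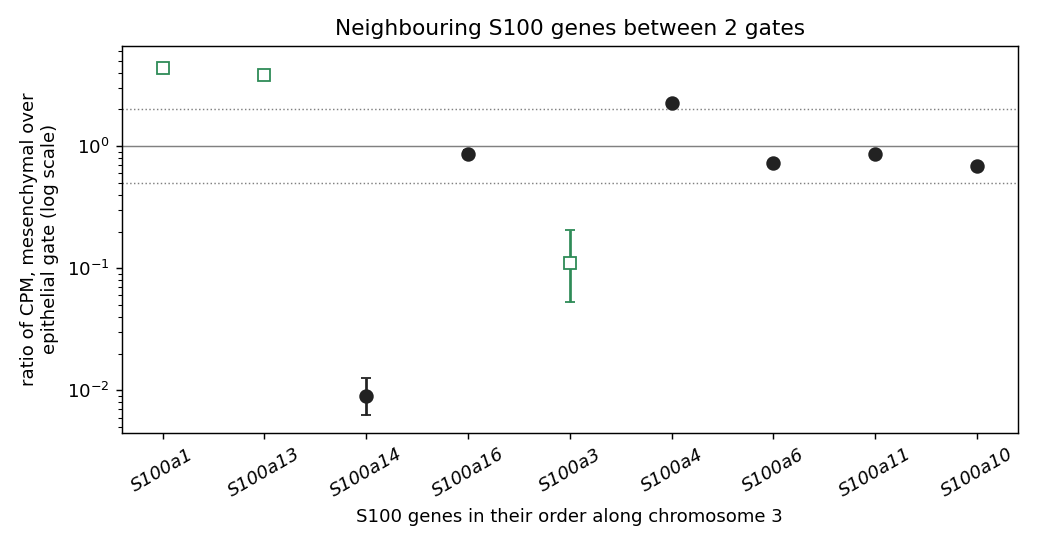
Ratio of the level in the mesenchymal gate to that in the epithelial gate, on a log scale, for S100 genes above 10 CPM in their order along chromosome 3 (not to scale). Filled circles are members, open squares other S100 genes, bars exact 95% intervals for counting error, and dotted lines the calling ratio of 2 in each direction. Adjacent genes differ: S100a13 lies at 3.81, S100a14 near 0.009 and S100a16 at 0.866.

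Partners of S100 proteins were described by a list of 18 genes, of which 15 reached 10 CPM in either gate. In the mesenchymal gate 3 were called higher and 1 lower, where 11.3% and 11.2% of all tested genes were, and the median ratio was 1.36 beside 0.992 over all genes tested. Anxa1, the partner of S100a11, was 4.40-fold lower, at 656.9 against 2893 CPM. Anxa2, the partner of S100a10, stood at 495.6 and 551.5 CPM, a ratio of 0.899. Myh9, the myosin heavy chain that S100a4 binds, stood at 474.4 and 239.0 CPM, a ratio of 1.99 just under the call. The 3 genes called higher were Plat (15.1-fold), a plasminogen activator, Bsg (2.36-fold), a reported S100A9 receptor, and Plaur (2.23-fold), the urokinase receptor. Plat passed the 10 CPM minimum only through the mesenchymal gate, at 64.7 against 4.29 CPM, so no lower call was possible. The receptor genes Ager and Tlr4 were at 0.174 and 12.1 CPM in the epithelial gate. Of 27 genes of the epidermal differentiation complex in the matrix, 5 reached 10 CPM in either gate. Beside the same background of 11.3% and 11.2%, Sprr1a was called higher in mesenchymal cells (2.44-fold), and Sprr1b (84.5-fold), Sprr2a3 (55.4-fold) and Sprr2d (at least 61.3-fold, no UMIs counted) lower. Those last 3 genes, like S100a14, passed the 10 CPM minimum only through the epithelial gate. No higher call was possible for them, so their shared direction is no result. S100a4 had the direction of Sprr1a.

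The mixed cells lay between the gates for both divergent members. S100a14 stood at 362.0 CPM (313.2 to 416.2) and was the 1 member called lower than in epithelial cells, beside 6.48% of genes. None was called higher, beside 7.20%. S100a4 stood at 204.0 CPM (167.8 to 245.6) and S100a16 at 246.2 CPM (206.3 to 291.6), and these intervals overlap, so their order in the mixed cells is not resolved. S100a6 stood at 10178 CPM. In cells of no gate, S100a14 stood at 494.1 CPM and S100a4 at 168.1 CPM, again between the epithelial and mesenchymal levels.

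In Malat1-rich barcodes most members were depleted. The gate was shallow, with 1343 UMIs and 8.29% of them mitochondrial at the median, where the epithelial gate had 3075 and 2.66%. Of the 6 members tested, 5 were called lower than in epithelial cells, beside 10.9% of genes called lower and 21.3% higher. S100a16 had 85.8 CPM (ratio 0.333), S100a4 to 48.7 CPM (0.381), S100a10 to 741.6 CPM (0.395), S100a11 to 913.2 CPM (0.409) and S100a14 to 401.5 CPM (0.494). S100a6 had 5879 CPM, a ratio of 0.517 that missed the call. The gate was not uniform. The 518 barcodes with 5 to 10% Malat1 had 7962 CPM of S100a6, and the 346 with at least 10% had 513.1 CPM. With the gate set at 10%, all 6 members were called lower, at 0.0339 to 0.0717 of the epithelial level, where S100a4 had 1 UMI in all and was counted as 3. Those 346 barcodes had 1158.5 UMIs at the median, 10.9% of them mitochondrial. The part of depth and RNA quality in the loss of S100 UMIs was not tested.

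**Figure D3:**
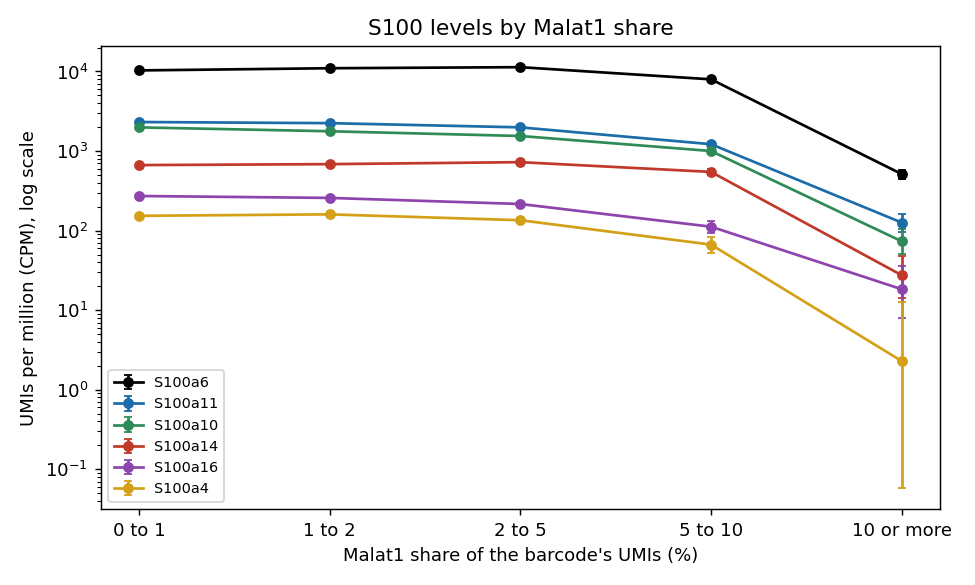
Level of 6 S100 genes, in CPM on a log scale, in kept barcodes grouped by the share of their UMIs from Malat1. Points are summed levels and bars exact 95% Poisson intervals for counting error. Up to a share of 5% the levels of S100a6 stay between 10306 and 11323 CPM, and at 10% or more the level is 513.1 CPM. From the lowest bin to that of 2 to 5%, S100a10 falls from 1983 to 1546 CPM, S100a11 from 2316 to 1985 CPM and S100a16 from 272.3 to 216.1 CPM. S100a4 goes from 153.5 to 135.1 CPM, and S100a14 rises from 665.9 to 724.9 CPM.

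Within the epithelial gate, 7 overlapping subgates on other genes were each compared with the remaining epithelial cells. These were dividing cells (1785), secretory cells with Ltf and Lcn2 (670), Wfdc18-high cells (4793), Krt7-high cells (86), chemokine-producing cells (4720), squamous cells with Krt13, Krt4, Krt6a, Sprr1a, Sprr3 or Ivl (3104) and Spp1-high cells (407). S100a6, S100a10, S100a11, S100a14 and S100a16 were called in none of the 7, with ratios from 0.703 to 1.32. In the squamous subgate, S100a16 stood at 307.3 against 232.3 CPM (ratio 1.32, 1.27 to 1.38), S100a14 at 954.7 against 739.6 CPM (1.29, 1.26 to 1.32) and S100a6 at 12964 against 10564 CPM (1.23, 1.22 to 1.24). These 3 members were higher by more than counting error but by less than 1.5 times. S100a9 and S100a4 were called once each. The shares of all tested genes called higher and lower were 5.52% and 0.986% in dividing, 0.295% and 0.165% in squamous, 0.667% and 0.375% in chemokine, and 1.91% and 1.55% in Spp1-high cells, where no member was called.

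S100a9 was called higher in the secretory subgate, at 25.1 CPM against 2.18 CPM, where 3.73% of genes were called higher and 3.35% lower. The ratio was 11.5 (8.01 to 16.6), from 58 against 70 UMIs. S100a9 reached the 10 CPM minimum only through the secretory cells, so it could be called in no other direction, and the call adds nothing to the 2 levels. It also differed below the 10 CPM minimum, with 8.37 against 1.32 CPM in the squamous and 6.33 against 0.953 CPM in the chemokine subgate, which held 82.4% of the secretory cells. S100a9 encodes the larger subunit of calprotectin, and Ltf and Lcn2, which set the gate, encode the iron-binding defence proteins lactoferrin and lipocalin 2. Of 48 epithelial cells with an S100a9 UMI, 20 (41.7%) were secretory and 31 (64.6%) squamous, against 6.06% and 28.6% of cells without one. Those 48 cells had a median of 4000.5 UMIs against 3072 UMIs, and detection of a rare gene moves with depth. They had 730.0 against 120.4 CPM of Slpi, an antiprotease, 6696 against 1125 CPM of Ly6d, a keratinocyte surface protein, and 1350 against 809.7 CPM of S100a14. Sprr1a, a gene of the squamous gate, went the other way, with 115.5 against 202.3 CPM. Slpi, Ly6d and Sprr1a were picked with their values seen. In the mesenchymal gate S100a9 gave no UMI in 1373 cells, where 3 UMIs would be 0.630 CPM.

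S100a8, the other calprotectin subunit, did not follow S100a9 in number of cells. It gave 10 UMIs in 9 epithelial cells, 3 in 1 mesenchymal cell, 5 in 1 Malat1-rich barcode and 1 in an ungated cell. The 3 barcodes richest in S100a8 held 52.6% of its UMIs, and those richest in S100a9 held 30.5%. Both genes were seen together in 3 barcodes, with 5 and 6, 1 and 3, and 2 and 24 UMIs of S100a8 and S100a9. The 24 UMIs were the highest S100a9 count of any cell. Markers of neutrophils, the best known source of calprotectin, were also near the limit of detection. A list of 10 of them summed to between 0 and 0.640 CPM over the gates. In the epithelial gate the sum was 0.580 CPM from 20 UMIs, where S100a8 had 0.290 CPM from 10 UMIs. Csf3r, Retnlg, Elane, Camp and Ngp gave no UMI there, and Ptprc, Ly6g, Itgam, Cxcr2 and Mpo gave the 20. The source of the calprotectin UMIs was not tested.

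S100a4 varied with the epithelial subgates more than the other detected members did, leaving out the calprotectin genes. It stood at 46.0 CPM in the 86 Krt7-high cells against 128.7 CPM, a ratio of 0.358 (0.204 to 0.581) from 16 UMIs, and was called lower there beside 4.51% of genes, with 6.91% higher. It was also below the other cells in Spp1-high (78.9 against 130.4 CPM), secretory (84.9 against 131.0 CPM) and chemokine cells (102.1 against 155.1 CPM), none of them called. In Wfdc18-high cells it stood at 164.0 against 98.1 CPM, a ratio of 1.67 (1.57 to 1.78) under the call, where 0.164% of genes were called higher and 0.774% lower. Wfdc18 encodes a small secreted WAP-domain protein and was the gene most correlated with S100a4 over epithelial cells.

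Epithelial cells thinned to 1500 UMIs were therefore grouped by Wfdc18 UMIs, in bins chosen after the data were seen. Wfdc18 was picked for its correlation with S100a4 in these same cells. The S100a4 levels by bin describe that correlation and are no further support for it. S100a4 stood at 80.7 CPM (72.9 to 89.0) in 3289 cells without Wfdc18, at 131.5 CPM with 1 to 3 UMIs, 141.1 CPM with 4 to 9, 161.5 CPM with 10 to 19, and 182.0 CPM with 20 or more. S100a10 stood at 1610 CPM (1575 to 1646) without Wfdc18 and 2126 CPM (2076 to 2176) at 20 or more UMIs. Each value of S100a4 was above that of the bin before, although the intervals of the bins next to each other overlapped except for the first step. S100a9 went the other way, from 4.26 CPM (2.63 to 6.51) without Wfdc18 to 0.304 CPM, which is 1 UMI, at 20 or more. S100a14 stayed between 771.8 and 839.2 CPM over the 5 bins, with overlapping intervals.

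**Figure D4:**
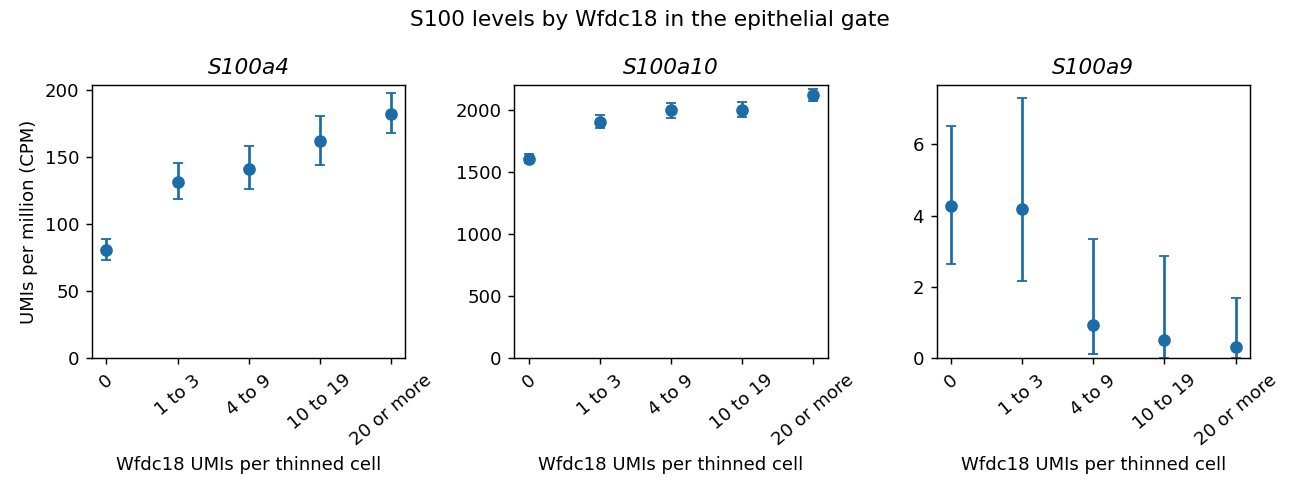
Levels of S100a4, S100a10 and S100a9 in epithelial cells thinned to 1500 UMIs and grouped by Wfdc18 UMIs, in CPM on linear axes from 0 that differ between panels. Points are summed levels and bars exact 95% Poisson intervals for counting error. S100a4 is at 80.7 CPM without Wfdc18 and at 182.0 CPM with 20 or more UMIs. Wfdc18 was picked for its correlation with S100a4 in these cells, so this rise is no further support for it.

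Dividing cells were near other cells for most members. Among epithelial cells S100a4 had 105.0 CPM in dividing and 133.9 CPM in other cells, and S100a10 2082 and 1826 CPM, neither called. In the mesenchymal gate, with 62 dividing and 1311 other cells, S100a14 was called higher in dividing cells, beside 11.0% of genes, and no member lower, beside 4.13%. It passed the 10 CPM minimum only through the dividing cells, so no lower call was possible and the higher one is no result. It had 39.1 against 5.35 CPM, a ratio of 7.30 (3.23 to 15.5), from 11 UMIs in 3 cells. The dividing cells had a median of 4422.5 against 3349 UMIs, 674.9 against 605.3 CPM of 10 epithelial markers and 9165 against 13048 CPM of 12 mesenchymal markers. The part of doublets in these 3 cells was not tested.

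Neighbouring members were then compared for co-variation over the thinned cells, as Pearson correlations of log counts. These cells share 1 library, are not replicates, and carry no p-value. S100a11 and S100a10, adjacent with starts 34592 bases apart, had a correlation of 0.24 over 13281 cells, 0.21 over 10141 epithelial cells and 0.16 over 1365 mesenchymal cells. S100a14 and S100a16, adjacent at 10398 bases, had 0.08, 0.09 and 0.00. Only 16 of the 1365 mesenchymal cells had S100a14, too few for that last value to tell whether the 2 genes vary together there. S100a4 and S100a6, at 9111 bases and with only the undetected S100a5 between them, had 0.09, 0.08 and 0.19. S100a14 and S100a6, 86026 bases apart, had 0.29 over all cells and 0.27 over epithelial cells, and S100a6 and S100a11, 2907606 bases apart, had 0.29 and 0.22. In these uncorrected values the pairs of the abundant S100a6 with S100a14 and with S100a11 stood highest among members, over all and over epithelial cells. Its pair with S100a4 did not.

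Sparse counts hold correlations down, so values corrected for counting noise were also computed, a choice made after the data were seen. S100a14 and S100a16 then reached 0.54 over all and 0.69 over epithelial cells, S100a11 and S100a10 0.61 and 0.58, and S100a14 and S100a6 0.61 and 0.66. S100a4 and S100a6 stayed at 0.15 and 0.13, and reached 0.42 in mesenchymal cells. S100a6 and S100a11 had 0.41 and 0.35. By this measure the adjacent pair S100a14 and S100a16 was below S100a14 and S100a6 over all cells. Another thinning seed gave 0.530 and 0.589 there, and moved S100a11 and S100a10 from 0.605 to 0.629. Over epithelial cells the adjacent pair was above, at 0.69 against 0.66. Those values have no interval and were not computed with another seed, so that order is not resolved. Of the 3 neighbouring pairs named here, S100a4 and S100a6 had the lowest values over all and epithelial cells. S100a8 and S100a9 had a Pearson correlation of 0.24 that rested on 1 thinned Malat1-rich barcode with both genes, and it was -0.000676 without Malat1-rich barcodes. S100a14 and S100a4 had -0.03 over all cells and 0.03 within the epithelial gate before correction, and -0.0511 and 0.0993 after it. Chtop and Snapin, genes of other families within the first run's flank, had uncorrected values of 0.02 and -0.00 with S100a14. Both averaged under 0.1 thinned UMIs, so no corrected value was computed. They cannot be set beside the corrected pairs.

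**Figure D5:**
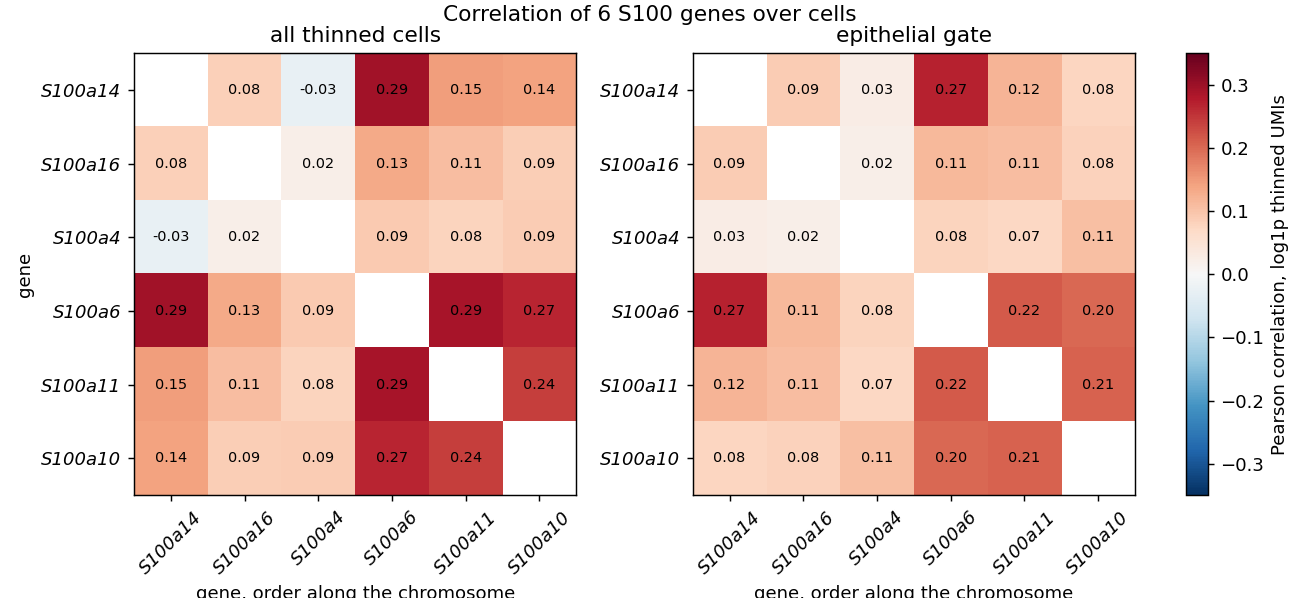
Pearson correlation of log thinned UMIs between 6 S100 genes, in chromosomal order, over all 13281 thinned cells (left) and over 10141 epithelial cells (right). Colour and printed number give the correlation of each pair, and the diagonal is blank. In these uncorrected values S100a6 stands highest, at 0.29 with S100a14 and with S100a11 over all cells, while S100a4 has 0.09 with its neighbour S100a6.

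Against 2623 other genes that averaged 0.1 or more thinned UMIs, S100a6 had the highest uncorrected correlation with S100a11, with S100a14 and with S100a16, both over all cells and over epithelial cells. S100a6 has by far the most UMIs of the members, and the order among members changed with the correction for counting noise. Corrected, S100a11 had 0.61 with S100a10 and 0.41 with S100a6 over all cells, and S100a16 had 0.55 with S100a11, 0.54 with S100a14 and 0.44 with S100a6. S100a14 still had its highest value with S100a6 (0.61) over all cells. Over epithelial cells it had 0.69 with S100a16 and 0.66 with S100a6, an order that is not resolved. For S100a10, S100a6 ranked second by the uncorrected values over all cells, after Ppia, the peptidyl-prolyl isomerase cyclophilin A. S100a6 itself was closest to Ppia (0.36), Rps4x (0.34), a ribosomal protein gene, and Ly6a (0.34) over all cells. Over epithelial cells it was closest to Ly6a (0.30), Rps4x (0.28) and S100a14 (0.27). In mesenchymal cells the first 3 were genes of the actin cytoskeleton, Tmsb4x (0.40), Tpm1 (0.29) and Actg1 (0.28). The lowest values of S100a6 over all cells included Gm42418 (-0.24), a transcript overlapping ribosomal RNA, and the mitochondrial mt-Co1 (-0.19). Those transcripts also follow RNA quality, whose part in these correlations was not tested. The uncorrected rank of S100a6 as first for S100a11, S100a14 and S100a16 also held with Malat1-rich barcodes left out.

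S100a4 and S100a14 had partners of the kind that their gates differ in. Over all cells S100a4 was closest to Acta2 (0.14), Sparc (0.14) and Tmsb4x (0.13), of which Acta2 encodes smooth muscle actin and Sparc a matrix protein. Within the epithelial gate its closest genes were Wfdc18 (0.11), S100a10 (0.11) and the basal keratin Krt14 (0.08). S100a14 was closest to S100a6 (0.29), Fxyd3 (0.27) and Anxa1 (0.24) over all cells, and lowest with Fn1 (-0.32), Vim (-0.31) and Fstl1 (-0.31). Within the epithelial gate it was closest to S100a6 (0.27), Ppbp (0.13) and Ly6d (0.12). S100a11 was closest to S100a6 (0.22), S100a10 (0.21) and Krt14 (0.16) there, and S100a16 to S100a6 (0.11), S100a11 (0.11) and Ppbp (0.11). These are uncorrected values. Corrected for counting noise over epithelial cells, S100a11 had 0.58 with S100a16 and with S100a10 and 0.35 with S100a6, and S100a16 had 0.69 with S100a14 and 0.39 with S100a6.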

How the data were processed

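The deposited counts are UMIs per gene and barcode, written by Cell Ranger 8.0.1 per the file headers. The submitters' processing notes also name Scanpy 1.8.2 and the build mm10. Neither says from which of the 3 libraries the matrix was made, so it counts as 1 sample here. Whether counting used strand is not given in the sources used here, so the treatment of UMIs where genes overlap is not known.

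The minimum per barcode was 500 genes and 1000 UMIs and the maximum mitochondrial share 20%. This left 14925 barcodes and removed 3191. Gates used raw UMIs: epithelial or mesenchymal cells had at least 3 UMIs of their own gate genes and at most 1 of the other set. Subgates needed 3 UMIs (dividing, squamous), 10 (Wfdc18) or 5 (the others). Levels were compared as ratios of summed CPM, with counts below 3 UMIs set to 3 for calling. Correlations and shares used cells thinned to 1500 UMIs, which left out 1644 shallower cells: 638 epithelial, 8 mesenchymal, 498 ungated and 500 Malat1-rich. Shares have exact (Clopper-Pearson) 95% intervals. Reads are PCR copies, but UMIs count molecules once, so intervals cover counting error only.

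Scrublet in scanpy 1.11.5 called 1 of 14925 cells, too few for a working call, so no doublet was removed. Gene positions came from GENCODE M21, which held 32158 of the 32287 feature IDs, and promoters from RefSeq. Other steps used Python 3.11.15, NumPy 2.4.6 and SciPy 1.17.1. The script that calls genes was tested on simulated data.

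The members, gates and gene lists were chosen with earlier results of these data known. Named genes are the members, other S100 genes above 10 CPM, a partner list, a list of the epidermal differentiation complex, expressed genes within 100 kb of a member, and the 3 genes most correlated with each member. The genes at the lowest correlations, the mesenchymal first 3, the gauge Grem1, Col1a2 and Thy1 were named after their values were seen. So were Aebp1, Sparc and Fn1 beside Grem1. The same holds for S100a5 and S100a2, and for Slpi, Ly6d and Sprr1a beside S100a9.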

Additional observations from a re-analysis of the deposited data

How the results depend on the processing

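No paired analysis was possible because the data come from 1 culture with 1 replicate of each library. Between the mesenchymal and epithelial gates, 1 member higher and 1 lower held under every alternative cell filter, gate threshold, total, doublet filter and the ratio of 1.5. In the main setting the lower one, S100a14, passed the 10 CPM minimum only through the epithelial gate, so its call adds nothing to its levels. With no minimum CPM there were 2 higher and 2 lower. The S100a4 ratio ranged from 2.19 to 2.47 and that of S100a14 from 0.00565 to 0.0206. With subgate minimums doubled, S100a9 in the secretory subgate had a ratio of 7.86, and Krt7-high cells were under 50 and gave no value. S100a4 in secretory cells was then also called, as lower (ratio 0.475). S100a9 was also called in squamous cells (ratio 8.50). It passed the 10 CPM minimum only through those cells, so no lower call was possible and that call is no result. The share of all genes called with doubled minimums was not computed. Correlations moved most. Without thinning, S100a14 with S100a16 had 0.164, S100a4 with S100a6 0.168 and S100a11 with S100a10 0.502, where depth differs between cells. Thinning to 1000 UMIs gave 0.276 for S100a8 with S100a9 and 0.259 for S100a11 with S100a10. Another seed gave 0.368 and Spearman 0.0907 for S100a8 with S100a9. Without Malat1-rich barcodes the value was -0.000676 for S100a8 with S100a9 and 0.217 for S100a11 with S100a10. Corrected for counting noise, an alternative chosen after seeing the data, S100a14 with S100a16 had 0.544, S100a4 with S100a6 0.149 and S100a11 with S100a10 0.605. The cause of these moves was not tested. Of 48 alternative levels, 23 moved by more than counting error, all by less than 5%. With 19 UMIs of S100a8 and 141 of S100a9, depth leaves their levels in small gates unresolved.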
